A study of Mus musculus with 6 samples.

Results

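The 10 genes described here were the keratins Krt5, Krt14, Krt17, Krt7, Krt8, Krt18 and Krt19, the basal-cell transcription factor gene Trp63, and the epithelial adhesion genes Epcam and Cdh1. They were chosen by name as possible signs of mammary tumour cells in the lung, and all 10 had a row among the 35275 genes of the count tables. The RNA came from whole lungs of Balb/c mice taken 7 days after 250000 4T1 cells had been given into the tail vein. 4T1 is a mammary tumour line derived from the same mouse strain. The WT group (3 libraries) had received unmodified 4T1 cells and the KO group (3 libraries) 4T1 cells lacking PD-L1, and all lungs had been flushed with 20 mL of PBS. The hosts are not labelled as edited, neither sex, age nor the number of knockout clones is stated, and no uninjected lung was among the samples, so the level of these genes without tumour cells was not measured.

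Keratins are the intermediate filament proteins of epithelial cells and assemble as pairs of a type I and a type II chain. KRT8 (type II) with KRT18 (type I) is the pair of simple epithelia, joined there by KRT7 (type II) and KRT19 (type I), while KRT5 (type II) with KRT14 (type I) is the pair of basal cells of stratified epithelia and of mammary myoepithelium. In the lung, alveolar, airway and mesothelial cells carry simple keratins, and airway basal cells carry KRT5, KRT14 and p63, so none of these genes belongs to tumour cells alone.

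Between lungs with KO and WT tumour cells, no difference in these genes passed the test. The 6 abundant ones (Krt7, Krt8, Krt18, Krt19, Epcam and Cdh1) had 95% intervals that stayed between 0.722-fold and 1.38-fold of the WT level, and the 4 basal-cell genes had at most 2.68 CPM (counts relative to the library total, with TMM scaling) in any library and were each at 0 in at least 1. Of the 10 genes, 7 could be tested and 0 were called by edgeR's quasi-likelihood test (Benjamini-Hochberg adjusted p under 0.05), also 0 at an unadjusted p under 0.05 (14.6% of all genes tested) and 0 by DESeq2 or limma-voom, which called 4.19% and 1.37% of all genes they tested. The unadjusted count of 0 is narrow, since Krt8 stood at 0.0503. Its unadjusted edgeR value was 0.0437 with library size only, 0.0468 with a minimum count of 30, 0.0452 without WT replicate 2 and 0.0237 without KO replicate 1, with edgeR adjusted p of 0.195 to 0.444 in these fits. Over all 15191 genes tested, 1.45% were called (1.12% higher and 0.336% lower in KO), so 0 of 7 is near the background. Krt8 alone had all 3 KO libraries above all 3 WT libraries, a pattern found in 10.3% of all genes tested. No gene of the 7 had all KO libraries below all WT libraries, which 9.4% of all genes had, and the groups did not overlap, in either direction, for 19.7%.

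Libraries held 14711459 to 16932114 counts. A count of 0 allows up to 0.176 to 0.206 CPM (3 counts) in a library, for counting error only. Levels are ranked between genes as RPKM (CPM divided by the length of the exons in kilobases). The lung itself was plain in every library: Sftpc, the surfactant protein of alveolar type 2 cells, had 110016 to 139979 counts. Cd274, which encodes PD-L1, had 910, 912 and 1132 counts in the WT and 1514, 3013 and 4929 in the KO libraries. It was not lower in the KO libraries, and since the hosts are not labelled as edited and lung cells carry this gene, it does not check which cells were injected. In RNA of a whole organ, fewer cells of a kind and less RNA per cell cannot be told apart.

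Among the simple keratins, Krt7 (chromosome 15, 101411043 to 101430313, GRCm38 as all positions here) had 265, 269 and 194 CPM in WT replicates 1 to 3 and 249, 245 and 232 CPM in KO replicates 1 to 3. The groups overlapped, and WT replicate 3 was the lowest. The means were 243 ± 42.2 and 242 ± 8.56 CPM (SD, n = 3 per group), with a log2 difference of -0.00 ± 0.13 (SE, edgeR adjusted p = 0.992). Its 95% interval ran from -0.27 to 0.26 on the log2 scale.

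Krt8 (chromosome 15, 101996698 to 102004482), the type II chain of the simple pair, had 151, 154 and 132 CPM in the WT and 156, 169.5 and 187 CPM in the KO libraries. Each KO library lay above each WT library, although KO replicate 1 exceeded WT replicate 2 by little. The means were 145 ± 11.8 and 171 ± 15.5 CPM, a log2 difference of 0.23 ± 0.11 that did not pass (unadjusted p = 0.0503, edgeR adjusted p = 0.343). The interval ran from -0.00 to 0.47 on the log2 scale.

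Its type I partner Krt18 (102028180 to 102032027) had 96.9, 92.7 and 80.5 CPM in the WT and 97.0, 92.8 and 103 CPM in the KO libraries. These groups overlapped. The means were 90.0 ± 8.54 and 97.6 ± 5.09 CPM, a log2 difference of 0.12 ± 0.11 (edgeR adjusted p = 0.694, interval 0.918-fold to 1.28-fold).

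Krt19 (chromosome 11, 100140810 to 100148665), a type I chain without the usual tail domain, had 121, 122 and 109 CPM in the WT and 119, 104 and 99.0 CPM in the KO libraries. The lowest values were in KO replicates 2 and 3, and the groups overlapped. The means were 117 ± 7.26 and 107 ± 10.3 CPM, a log2 difference of -0.13 ± 0.11 (edgeR adjusted p = 0.64, interval 0.776-fold to 1.07-fold).

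**Figure D1:**
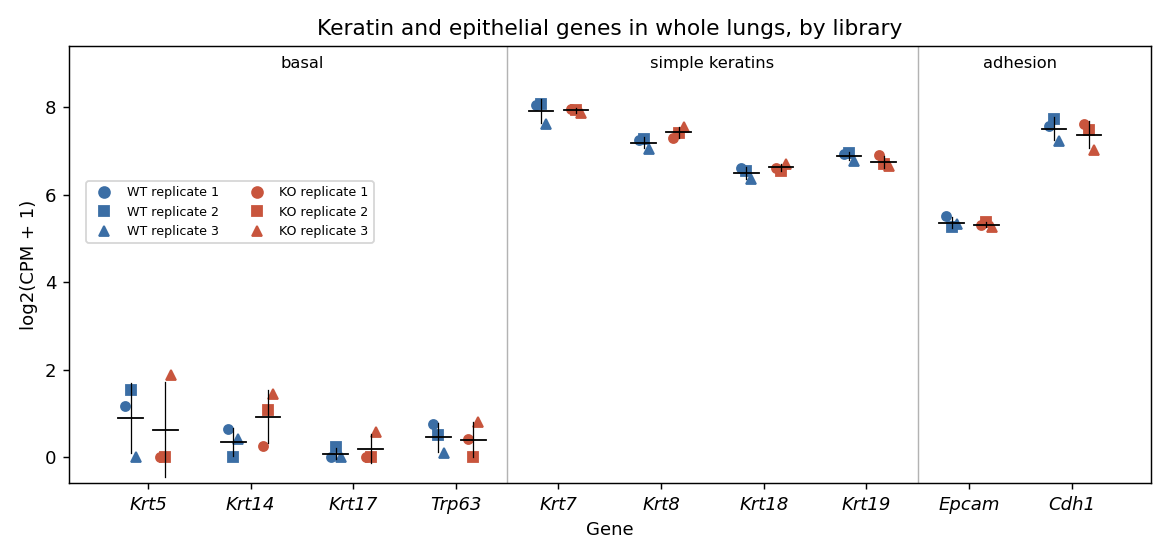
Level of each gene on a log2(CPM + 1) scale in the 3 WT (blue) and 3 KO (red) libraries, with symbols for replicates 1 to 3, black bars for the mean and thin lines for 1 SD. The simple keratins and adhesion genes lie at 37.1 CPM or more in every library and the basal genes at or below 2.68 CPM.

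Of the adhesion genes, Epcam (chromosome 17, 87635979 to 87651129), a surface glycoprotein of epithelial cells and carcinomas, varied least of all 10 genes. Its counts were 648, 632 and 595 in the WT and 600, 617 and 610 in the KO libraries, or 37.1 to 44.5 CPM and 37.2 to 40.4 CPM. The highest value was in WT replicate 1, and the groups overlapped. The log2 difference was -0.05 ± 0.13 (edgeR adjusted p = 0.901), with an interval from 0.789-fold to 1.18-fold. Its coefficient of variation over the 6 libraries was 7.01%, beside a median of 13.7% over 10013 genes at 10 CPM or more.

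Cdh1 (chromosome 8, 106603351 to 106670246) encodes E-cadherin, the calcium-dependent adhesion protein of adherens junctions. It had 189, 212 and 148 CPM in the WT and 195, 177 and 129 CPM in the KO libraries. Replicate 3 was the lowest of each group, and the groups overlapped. The means were 183 ± 32.3 and 167 ± 34.0 CPM, a log2 difference of -0.14 ± 0.16 (edgeR adjusted p = 0.751, interval 0.722-fold to 1.15-fold). At 17.7%, its coefficient of variation over the 6 libraries was the highest of the 6 abundant genes.

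**Figure D2:**
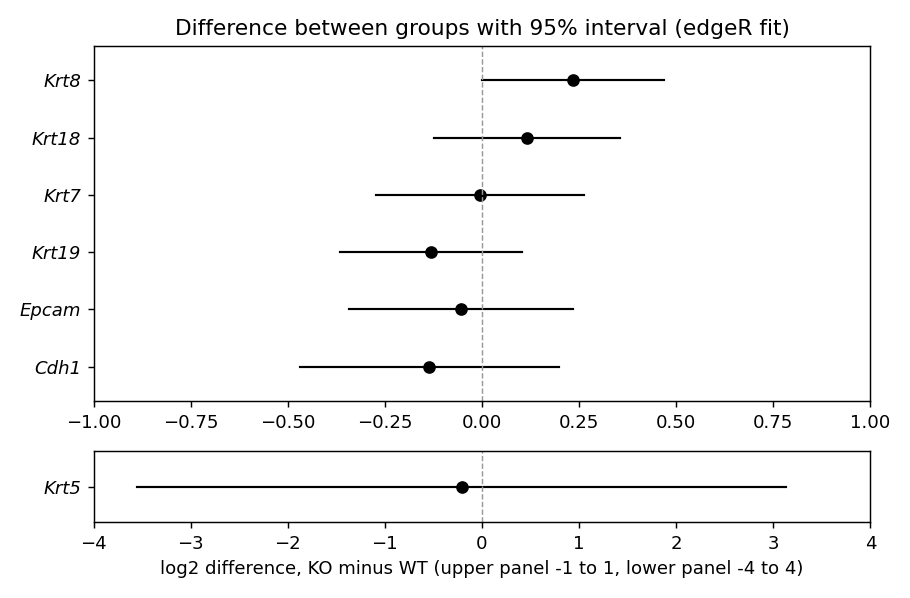
Log2 difference between KO and WT lungs (points) with 95% interval (lines) for the 7 tested genes, from the edgeR fit; the lower panel has a wider axis. The intervals of the 6 abundant genes stay between -0.47 and 0.47, and that of Krt5 spans -3.55 to 3.14.

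Per length, the order of the abundant genes was Krt8 (mean 80.8 RPKM over 6 libraries), Krt18 (65.3), Krt19 (60.5), Cdh1 (38.3), Krt7 (34.4) and Epcam (18.0). The ranges over libraries of Krt18 (56.0 to 71.6 RPKM) and Krt19 (53.3 to 65.7 RPKM) overlapped, as did those of Cdh1 (28.2 to 46.4 RPKM) and Krt7 (27.5 to 38.2 RPKM). Krt8 (67.3 to 95.6 RPKM) also overlapped Krt18 across libraries, but within each library it was higher. The annotated exons of Krt7 add up to 7049 bases over all its transcripts, which lowers its RPKM if shorter transcripts prevail. Epcam, at 16.9 to 20.3 RPKM, lay below the other 5 in every library.

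Ratios within a library do not depend on library scaling, and 7 were compared by a two-sided exact permutation test, for which 0.1 is the smallest p that 3 against 3 libraries allow. Krt8 and Krt18 are neighbours on chromosome 15, 23697 bases apart. The RPKM ratio of Krt8 to its partner Krt18 was 1.14 to 1.22 in the WT libraries and 1.18, 1.34 and 1.34 in the KO libraries. The groups overlapped (exact permutation p = 0.3, adjusted 0.42). The ratio of Krt8 to Krt19 was 1.18, 1.19 and 1.15 in the WT and 1.25, 1.55 and 1.79 in the KO libraries, all KO values being higher (exact permutation p = 0.1, adjusted 0.35). The ratio of Krt18 to Krt19 was 1.03, 0.982 and 0.954 in the WT and 1.05, 1.16 and 1.34 in the KO libraries, again all higher (exact permutation p = 0.1, adjusted 0.35). Both ratios to Krt19 were highest in KO replicate 3 and close to the WT values in KO replicate 1. The 3 other pairs of simple keratins, and Epcam against Cdh1, overlapped between groups (adjusted p from 0.42 to 0.8, exact permutation test).

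**Figure D3:**
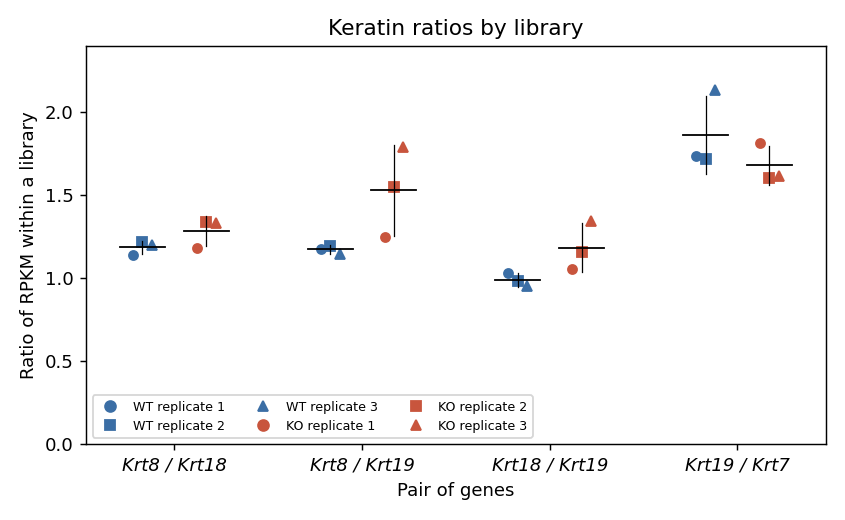
RPKM ratios of 4 keratin pairs within each library (WT blue, KO red, symbols for replicates), with the group mean and 1 SD. The Krt8 to Krt18 ratio stays between 1.14 and 1.34 in all libraries, while both ratios to Krt19 are higher in each KO than in each WT library.

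The basal-cell genes were low and uneven, with 201 counts for 4 genes over all 6 libraries. Per length, their means lay between 0.0440 RPKM (Trp63) and 0.440 RPKM (Krt5), against 34.4 to 80.8 RPKM for the 4 simple keratins. Krt5 (chromosome 15, 101707070 to 101712898) was counted 18, 32 and 0 times in WT and 0, 0 and 44 times in KO libraries. It was therefore at 0 in 3 libraries and reached 2.68 CPM in KO replicate 3 (exact Poisson interval 1.95 to 3.60 CPM, counting error only). Of the 4 basal genes it alone passed the filter on low counts, through 3 libraries of both groups, with a log2 difference of -0.21 ± 1.51 (edgeR adjusted p = 0.967, interval 0.0851-fold to 8.78-fold). At this depth and spread a difference of several-fold in either direction was not detectable. Without KO replicate 3 the log2 difference was -7.03 (edgeR unadjusted p = 0.0145, adjusted 0.306), a value set by the group then being at 0 and no bound.

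Krt14 (chromosome 11, 100203162 to 100207548), the type I partner of Krt5, was counted 8, 0 and 5 times in WT and 3, 17 and 28 times in KO libraries. The groups overlapped, and the 2 highest values were in KO replicates 2 and 3. With no filter its log2 difference was 1.77 (edgeR adjusted p = 0.596). Krt17 (chromosome 11, 100256217 to 100261029), a type I keratin of basal and wounded epithelium, had 3 counts in WT replicate 2, 8 in KO replicate 3 and 0 elsewhere. Trp63 (chromosome 16, 25683763 to 25892102), the p63 transcription factor of basal cells, was counted 10, 7 and 1 times in WT and 5, 0 and 12 times in KO libraries. All 4 basal genes had their highest count in KO replicate 3. Krt5 and Krt14 did not follow each other elsewhere: WT replicate 2 had 32 counts of Krt5 and 0 of Krt14, and KO replicate 2 had 0 of Krt5 and 17 of Krt14. Their counts varied over the 6 libraries by 21.3 and 10.4 times the variance of counting error (chi-square per degree of freedom). The same measure was 89.1 for Cdh1, 47.5 for Krt7 and 34.9 for Krt8, and 13.5, 9.39 and 2.96 for Krt19, Krt18 and Epcam. Since it grows with the count, it does not compare the unevenness of low and abundant genes.

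Other genes of airway basal cells also had few reads. Krt15, a further basal keratin, had 0.197 to 1.70 CPM in the WT and 0.590 to 1.04 CPM in the KO libraries. The water channel gene Aqp3 had 0.131 to 4.93 and 1.03 to 2.36 CPM, and Ngfr, a surface receptor of basal cells, 0.525 to 1.17 and 0.305 to 1.09 CPM. The full list also holds Krt5, Krt14 and Trp63, and Krt5 is among its 7 tested genes. None of these 7 was called by edgeR, DESeq2 or limma-voom, although DESeq2 gave Krt5 no adjusted p. By edgeR 0 had an unadjusted p under 0.05. The smallest p values were those of Snai2, a transcription factor of mesenchymal cells too (10.6 ± 2.96 and 7.34 ± 1.44 CPM), and of Icam1, an adhesion receptor of many cells, which took the most reads of the list (636 ± 18.4 and 716 ± 57.8 CPM). Of 19 squamous and skin genes with a row, 7 had 0 counts in all libraries (Krt2, Krt6a, Krt6b, Krt36, Sprr3, Sprr2h and Dsg3), 10 had counts but did not pass the filter, and 2, Krt23 and Krt10, were tested. Neither was called by edgeR, DESeq2 or limma-voom (0 at an unadjusted p under 0.05 by edgeR). Among those not tested, Sbsn, Lor and Ivl, genes of the cornified layer of skin, had 62, 45 and 39 counts over all libraries.

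**Figure D4:**
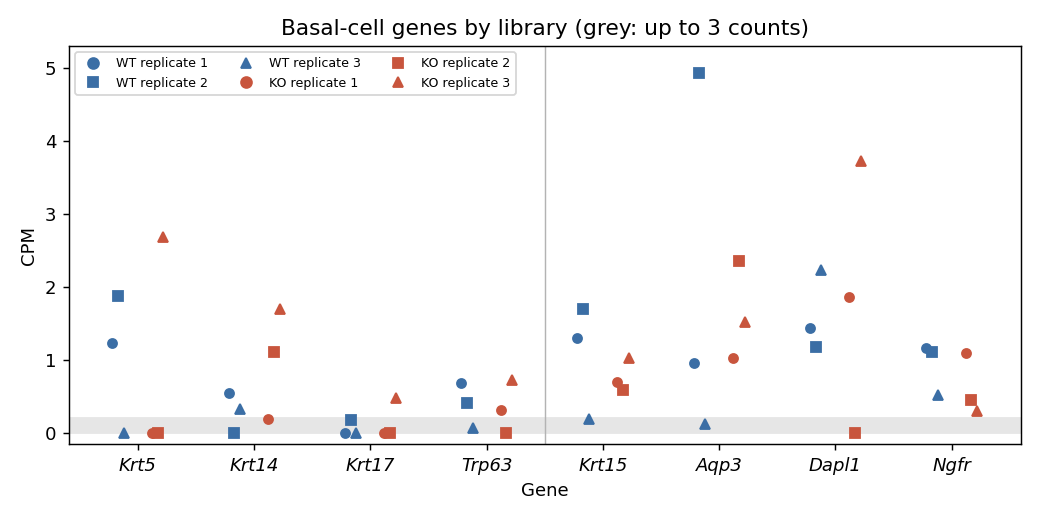
CPM of the 4 basal-cell genes (left) and of 4 further airway basal genes (right) in each WT (blue) and KO (red) library; the grey band ends at the 0.206 CPM that 3 counts give in the shallowest library. Krt5 is at 0 in 3 libraries and at 2.68 CPM in KO replicate 3.

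Among the 46 other keratin genes, 26 had 0 counts in all libraries, 14 had counts but did not pass the filter, and 6 were tested. None of the 6 was called by edgeR (0 at an unadjusted p under 0.05, and 0 by DESeq2 or limma-voom), and their median log2 difference was -0.26, against 0.01 over all genes tested. This median has no stable sign, and the number of genes tested differed between settings. It was 0.10 with a minimum count of 30 and 0.08 by DESeq2, each over 4 genes. It was -0.06 by limma-voom over 6 genes and 0.05 without WT replicate 2 over 7 genes. Krt80, a type II keratin, had 24.1 RPKM on average, below Krt7 and above Epcam, and no other of the 6 exceeded 6.64 RPKM. Its means were 159 ± 37.7 and 149 ± 10.9 CPM in WT and KO lungs (log2 difference -0.09 ± 0.15). Krt79 had 11.7 ± 2.35 and 14.2 ± 4.33 CPM, Krt23 had 11.9 ± 1.71 and 8.85 ± 3.98 CPM, and Krt10, a keratin of the upper epidermis, 1.99 ± 0.385 and 3.18 ± 1.10 CPM. Krt15 and Krt87 were at or below 1.32 CPM on average in each group. The groups of all 6 overlapped.

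Of 39 genes of epithelial junctions and identity, 36 were tested and none was called by edgeR, DESeq2 or limma-voom. By edgeR, 3 had an unadjusted p under 0.05, all lower in KO. The median log2 difference was -0.04, or 0.02 without KO replicate 3, with 15 genes above 0 and 21 below. The summed level of the 39 genes was 3389 to 3548 CPM in the WT and 2906 to 3358 CPM in the KO libraries, which did not overlap. Genes with many reads weigh most in this sum, and its difference was not tested. Pkp2, a desmosomal plaque protein, averaged 41.2 ± 5.05 CPM with WT and 31.2 ± 2.49 CPM with KO cells (log2 difference -0.40 ± 0.15, edgeR adjusted p = 0.213). Desmoplakin, encoded by Dsp, which ties keratin filaments to desmosomes, had 79.7 ± 12.6 and 62.9 ± 9.32 CPM (-0.34 ± 0.14, edgeR adjusted p = 0.282). Ctnnb1, whose product beta-catenin binds the tail of E-cadherin, took the most reads of the list, at 935 ± 3.67 and 838 ± 29.7 CPM (edgeR adjusted p = 0.501). Of 10 hemidesmosome and laminin genes none was called by edgeR, DESeq2 or limma-voom, and 2 had an unadjusted p under 0.05 by edgeR. Of these 10 genes, 8 had negative and 2 positive log2 differences. Their summed level was 2337 to 2531 CPM in the WT and 2137 to 2268 CPM in the KO libraries, again without overlap and not tested. Lama3, a chain of the basement membrane laminin of epithelia, had the smallest p of the list (240.2 ± 80.5 and 163 ± 30.7 CPM, edgeR adjusted p = 0.258). Bcam, a laminin receptor, took the most reads of that list, at 592 ± 60.6 and 526 ± 41.5 CPM.

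The lung cells that carry the same keratins were read from their own markers. Of 12 alveolar type 2 genes none was called by edgeR (2 at an unadjusted p under 0.05, 0 by DESeq2 or limma-voom), with a median log2 difference of -0.10. Sftpc was at 7846 ± 481 and 7783 ± 1063 CPM, while the lipid transporter gene Abca3 had 339 ± 14.7 and 277 ± 33.9 CPM and the protease gene Napsa 129.5 ± 1.17 and 155 ± 12.9 CPM. Of 12 alveolar type 1 genes none was called by edgeR (2 at an unadjusted p under 0.05, 1 lower by DESeq2, 0 by limma-voom), with a median of -0.20. Of these 12 genes, 10 had negative and 2 positive log2 differences. Their summed level was 6291 to 7783 CPM in the WT and 6136 to 7193 CPM in the KO libraries. WT replicate 3, the lowest library for Krt7, Krt8 and Krt18, was also the lowest WT library here. For Krt8 and Krt18 this did not hold in the KO group. KO replicates 3 and 2 had the lowest sums of all libraries (6136 and 6152 CPM), but KO replicate 3 had the highest Krt8 and Krt18 (187 and 103 CPM). Krt7 was lowest of the KO group in that library. The part of this sum in the keratin values was not tested. Cldn18, a tight junction claudin, had 661 ± 81.7 and 509 ± 52.8 CPM (edgeR adjusted p = 0.153), Akap5 had 522 ± 103 and 419 ± 38.2 CPM, and Ager, with the most reads, 1845 ± 211 and 1813 ± 178 CPM.

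Of 11 tested genes of club and other secretory airway cells, edgeR called 1, DESeq2 4 (3 higher and 1 lower) and limma-voom 3, all higher. Over all genes tested these tools called 1.45%, 4.19% and 1.37%. By edgeR 5 of the 11 had an unadjusted p under 0.05, beside 14.6% of all genes. By edgeR Cyp2f2, a club cell cytochrome, rose: it averaged 85.3 ± 21.9 CPM with WT and 199 ± 63.9 CPM with KO cells (log2 fold change 1.22 ± 0.24, edgeR adjusted p = 0.044). Leaving out WT 1, WT 2, KO 2 or KO 3 ended the call, with edgeR adjusted p of 0.168, 0.208, 0.0663 and 0.104. Scgb1a1, the main club cell secretory protein, had 402, 307 and 798 CPM in the WT and 1844, 3113 and 1313 CPM in the KO libraries, which did not overlap but did not pass (edgeR adjusted p = 0.158). The summed level of the 12 genes was 1473 to 1973 CPM in the WT and 2557 to 4595 CPM in the KO libraries, highest in KO replicate 2. Scgb1a1 made up most of the gap between groups in this sum, which therefore does not show a rise of the whole list. Of the 11 tested genes, 9 had positive and 2 negative log2 differences. Krt8 moved with the summed level between groups but not within them. WT replicate 3 had the highest sum and the lowest Krt8 of the WT group. In the KO group Krt8 was highest in replicate 3, not in replicate 2. The part of this sum in the Krt8 values was not tested. Of 18 ciliated cell genes none was called by edgeR, DESeq2 or limma-voom (2 at an unadjusted p under 0.05 by edgeR). Sec14l3, with the most reads, had 841 ± 127 and 658 ± 46.3 CPM. No other gene of the ciliated list exceeded 98.7 CPM in any library, so the level of Sec14l3 does not stand for this list. Tmem212 had 2.56 ± 1.14 and 5.47 ± 1.32 CPM. Of 7 tested mesothelial genes none was called by edgeR, DESeq2 or limma-voom (0 at an unadjusted p under 0.05). Their median log2 difference was 0.51, with 4 genes above 0 and 3 below. The 2 with the smallest p were both among those below 0: Gpm6a had 35.6 ± 9.33 and 26.9 ± 6.94 CPM and Wnt4 had 9.54 ± 3.38 and 6.83 ± 1.21 CPM.

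Genes closer to the origin of the injected cells gave no single pattern. Of 20 mammary epithelial genes the casein genes Csn1s1, Csn1s2a, Csn2 and Csn3 had 0 counts in every library, and 12 were tested. Lcn2, a secreted siderophore-binding protein of inflamed epithelium and of neutrophils, rose from 25.4 ± 2.32 to 53.1 ± 14.4 CPM (log2 fold change 1.06 ± 0.19, edgeR adjusted p = 0.0161). It did not pass with WT 1, WT 2, KO 2 or KO 3 left out (edgeR adjusted p of 0.0955, 0.077, 0.121 and 0.0838). Mfge8, a milk fat globule protein that other cells also make, took the most reads, at 515 ± 53.1 and 431 ± 9.86 CPM. The milk protein gene Lalba had 0.197 to 0.825 CPM in the WT and 0.854 to 2.23 CPM in the KO libraries (edgeR adjusted p = 0.393). Of 20 genes of secreted tumour factors and of epithelial-mesenchymal transition none was called by edgeR, 7 had an unadjusted p under 0.05, and DESeq2 called 4 and limma-voom 1, beside the 14.6%, 4.19% and 1.37% of all genes given above. S100a4, a calcium-binding protein of motile cells, had 21.6 ± 8.28 and 49.5 ± 13.8 CPM (edgeR adjusted p = 0.0571). Postn, a matrix protein of fibroblasts, had 708 ± 4.49 and 535 ± 40.8 CPM (edgeR adjusted p = 0.072), and Vim, the intermediate filament gene of mesenchymal cells and leukocytes, took the most reads over both groups together, at 1178 ± 110 and 1340.3 ± 60.0 CPM. In the WT group Fn1, the fibronectin gene, had more, with 1287 ± 163 CPM against 1007 ± 60.5 CPM in the KO group (edgeR adjusted p = 0.163).

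Of 24 genes of cell proliferation, 23 had positive log2 differences with a median of 0.80, and none was called by edgeR. Of the 24, 15 had an unadjusted p under 0.05 by edgeR, beside 14.6% of all genes tested. DESeq2 called 4 as higher and limma-voom 0, beside 4.19% and 1.37% of all genes they tested. Without KO replicate 1, edgeR called 5 of the 24, and its calls over all genes rose to 3.69%. Top2a, the topoisomerase of dividing cells, had 15.5, 25.2 and 22.5 CPM in the WT and 25.6, 51.1 and 53.8 CPM in the KO libraries (edgeR adjusted p = 0.0829), and Cdk1 had 2.41 ± 0.129 and 6.45 ± 2.80 CPM (edgeR adjusted p = 0.095). Pcna took the most reads of the list, at 111 ± 7.88 and 131 ± 14.3 CPM. The summed level of the list was 298, 352 and 295 CPM in the WT and 368, 466 and 561 CPM in the KO libraries. Over all libraries of both groups this order was that of Krt8, with WT replicate 3 lowest and KO replicate 3 highest. WT replicates 1 and 3 were close in the sum. Dividing cells of any kind add to this sum, and its part in the Krt8 values was not tested.

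**Figure D5:**
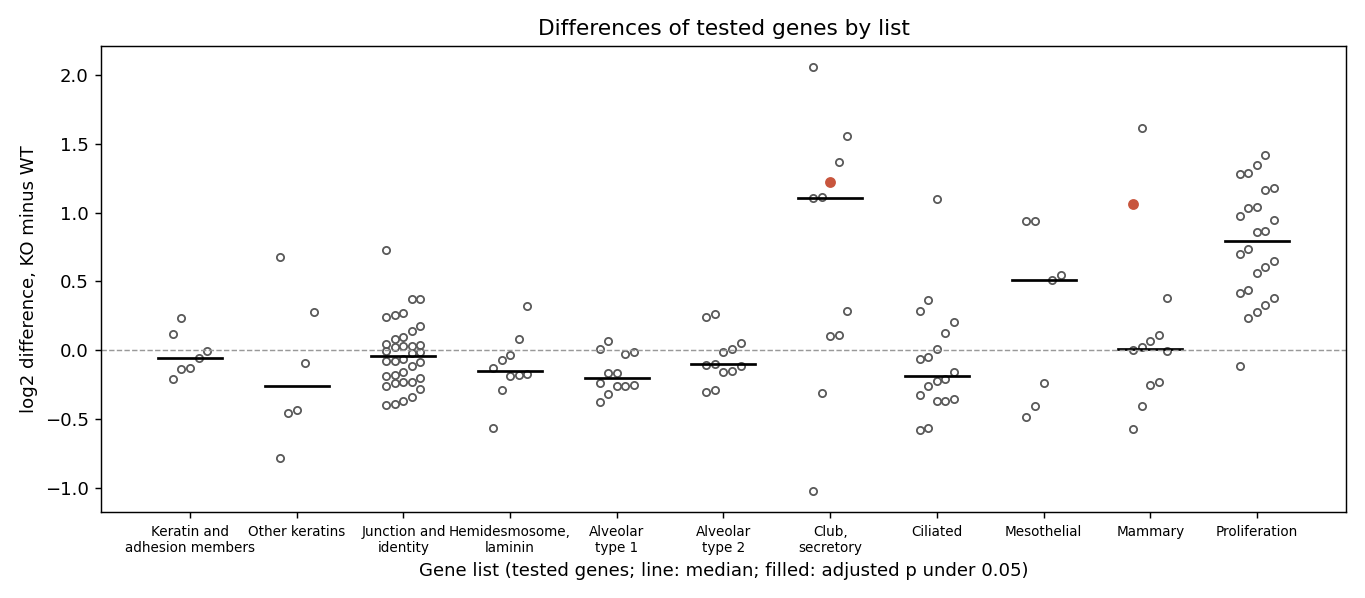
Log2 difference between KO and WT lungs for each tested gene (circles) of 11 gene lists, with the list median as a black line and genes called by edgeR at an adjusted p under 0.05 filled in red. The keratin and adhesion genes lie close to 0, the club and proliferation genes mostly above 0, and the hemidesmosome and alveolar type 1 genes mostly below 0. Only Cyp2f2 and Lcn2 are filled.

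The genes whose levels across the 6 libraries were most like the mean of Krt7, Krt8, Krt18 and Krt19 were Cyp39a1, Slc10a1, Dnajc24, Adam22 and Mapk8. Their Pearson r was 0.99, 0.99, 0.99, 0.98 and 0.98 on the log2(CPM + 1) scale. Those most like the mean of Krt5, Krt14 and Krt17 were Naip6, Rfwd3, Fxr1, Fem1a and Tstd3, with r of 0.99 to 0.97. These are descriptions over 6 libraries picked from 12551 genes, of which 99 and 67 had an r above 0.9. Cyp39a1 was lowest in WT replicate 3 (6.56 CPM) and lay between 10.7 and 12.6 CPM in the other libraries, and WT replicate 3 also had the lowest sum of the simple keratins (515 CPM, against 611 to 637). None of these 10 genes was an airway, alveolar or junction gene of the lists above.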

How the data were processed

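Each of 6 libraries came as 1 deposited table of raw counts per Ensembl gene. Per the labels, the authors aligned paired-end reads to mm10 with STAR 2.5 and made the counts with HTSeq 0.6.1. The sources used here do not give the annotation release, strand setting or counting mode. Without strand, reads of overlapping genes cannot be told apart: Krt5, Krt7 and Krt8 each overlap 1 opposite-strand gene with no row in the tables. Stretches shared by keratin paralogues may lose reads.

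Symbols, coordinates and exonic lengths came from GENCODE M21 (GRCm38) by identifier (34490 of 35275 matched). The KO and WT groups were compared in R 4.3.3 by edgeR 4.0.16, using TMM, filterByExpr with a minimum count of 10, the quasi-likelihood F-test with robust=TRUE and Benjamini-Hochberg adjustment over 15191 genes. The SE is the log2 difference, without sign, over the root of F. Alternatives used DESeq2 1.42.0, limma 3.58.1, other scalings, filters and thresholds, each library left out, and the replicate number as a block. The procedure was tested on simulated data. No 2 libraries held identical values. The labels do not say that each library is 1 animal, and p-values then reflect only the spread of these samples, which may be technical.

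Members and lists were chosen with earlier results of these data known. Named were the 10 genes; of each other list its called genes, or the 2 with the smallest p, and the gene with the most reads (highest mean CPM over the groups); other keratins at a mean of 1 CPM or more; and the 5 genes most like each keratin mean. Aqp3, Ngfr, Lalba, Fn1, Sbsn, Lor, Ivl and the genes named at 0 counts were chosen after their values were seen. One gene that this rule names is not reported here.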

Additional observations from a re-analysis of the deposited data

How the results depend on the processing

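No member was called under any of the 17 alternatives, nor was any junction gene or other keratin. For Krt8, Krt18 and Krt19 the direction held under all 15 alternatives run per gene (0.16 to 0.29, 0.04 to 0.17 and -0.21 to -0.08 on the log2 scale). The direction of genes near 0 turned under some settings. Krt7 was 0.0049 with library size only, 0.010 with limma-voom and 0.010 with the replicate block, and -0.145 to 0.0752 with 1 library left out, above 0 without WT replicate 1 or 2 or KO replicate 3. Epcam ranged from -0.110 to 0.0212 with 1 library left out (above 0 without WT replicate 1) and Cdh1 from -0.269 to 0.0163 (above 0 without KO replicate 3). Krt5 (-0.21) was -1.65 with limma-voom and -2.21 with the replicate block, and ranged from -7.03 to 0.54 with 1 library left out, above 0 without WT replicate 2 or KO replicate 1 or 2. The cause was not tested. Leaving out each library in turn, a choice made after the data were seen, the log2 difference between groups was 0.24 to 0.51 for the Krt8 to Krt19 ratio, 0.16 to 0.33 for Krt18 to Krt19 and 0.08 to 0.17 for Krt8 to Krt18.

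Over all genes, 221 were called, against 803 with no filter, 587 by DESeq2, 405 with the replicate block, 475 at an adjusted p of 0.1, 25 at 0.01, and 24 to 578 with 1 library left out. Of the lung epithelial markers 1 was called, against 7 with no filter, 0 with a minimum count of 30, 5 by DESeq2, 3 by limma-voom, 3 with robust=FALSE, 2 with the replicate block, 2 and 0 at 0.1 and 0.01, and 0 to 5 with 1 library left out. Of the proliferation genes 0 were called, against 6, 4, 2 and 3 with no filter, DESeq2, the replicate block and 0.1, and 0 to 5 with 1 library left out. Replicate numbers are not stated to pair the samples. Deviations of same-numbered libraries correlated at 0.06, 0.04 and 0.04 over 14395 genes. WT replicate 1 correlated best with KO replicate 1, and WT replicate 2 by little with KO replicate 2 (0.0411, against 0.0402 with KO replicate 1). WT replicate 3 correlated best with KO replicate 2 (0.0565). All these values were small, so the block was not read as a pairing.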
